A study of Caenorhabditis elegans with 12 samples.

Results

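The small RNA reads that map to 8 genes of the worm's own RNA interference (RNAi) machinery are described here, in small RNA libraries of Caenorhabditis elegans made before and after immunoprecipitation (IP) of an Argonaute protein. The genes are dcr-1, rde-4, eri-1, rrf-3, ego-1, rrf-1, drh-3 and sid-1, chosen by name, and they are 8 of the 20134 gene identifiers in the deposited count table. The names were given together with the identifiers, and no table used here pairs the identifiers with names, so the pairing itself was not checked. All 8 passed the filter on low counts, as did 9536 identifiers and 1286 genomic intervals, 10822 features in all. A read on one of these genes is a small RNA whose sequence lies in that gene. It is not a measure of the gene's mRNA or protein.

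RNAi begins when double-stranded RNA is cut by the nuclease Dicer, and the resulting small RNAs guide Argonaute proteins to matching transcripts. In worms the signal is then amplified by RNA-dependent RNA polymerases (RdRPs), which copy a target transcript into many short antisense RNAs that load onto a second set of Argonautes. CSR-1 binds small RNAs against genes that the germline expresses, most of which stay on, whereas WAGO-1 belongs to a branch of Argonautes known for silencing.

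The 12 libraries came from whole animals staged at the fourth larval stage (L4) and grown at 15 °C, in 4 groups, each with replicates A, B and C. The strain labelled 1xFLAG::CSR-1 gave a CSR-1 input group and a CSR-1 IP group. The other strain, which has WAGO-1::FLAG with the P3G change and WAGO-3 with P2G and A3E, gave the matching groups, called WAGO-1 P3G here, so bait, tag and genotype differ together between the strains. Both baits were pulled down with beads carrying an antibody to FLAG, and IPs of unmodified WAGO-1 or of an untagged strain were not analysed here. Only the inputs were enriched for small RNA with a kit, so each IP against its input also holds that step. The free text describes the inputs as pulled-down RNA and the WAGO-1 P3G IPs as RNA taken before the IP, against their titles, so groups follow the titles, sample names and antibody fields, which match each other. Nothing in the labels ties the replicates to separate cultures, so a p-value here covers only the spread among these libraries, which may be technical. In whole animals, fewer cells of a type and fewer small RNAs per cell cannot be told apart.

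Levels are CPM, a gene's count over all reads of the library that were counted to a feature, with mean ± SD over 3 libraries. Total reads were 878241 to 1373120 in the inputs and 3321443 to 13473204 in the IPs, and counted reads were 334088 to 533232 and 2405005 to 9187525. The counts behind the inputs are small: the lowest was 18 reads, on eri-1 in WAGO-1 P3G inputs A and B (for input A, 95% exact Poisson interval 10.7 to 28.4). The highest was 43003, on sid-1 in WAGO-1 P3G IP C (42597 to 43411). These intervals cover counting error only. All 12 pairs of replicates differed by more than sampling noise (chi-square over its degrees of freedom up to 8.97), and CSR-1 IP A stood furthest from its group. The 8 genes together took 0.227% ± 0.00782 of the counted reads of CSR-1 inputs, 0.541% ± 0.0326 in the CSR-1 IPs, 0.470% ± 0.0209 in the WAGO-1 P3G inputs and 0.555% ± 0.00481 in the WAGO-1 P3G IPs (SD, n = 3 each).

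Across the 4 groups the 8 genes fell into 3 patterns. Reads on dcr-1, eri-1, rrf-3, ego-1, rrf-1 and drh-3 rose with CSR-1 and fell with WAGO-1 P3G, each IP against its own input. Reads on sid-1 did the reverse. Reads on rde-4 rose in both fits, with CSR-1 by less than those of the 6 genes (log2 0.69 against 2.42 to 2.71). The first pattern was called for 18.9% of all tested features, the second for 20.2% and the third for 4.49%. A call here is an adjusted p under 0.05 in edgeR's quasi-likelihood test, with Benjamini-Hochberg adjustment across the 10822 features. The calls of ego-1 and rrf-1 with WAGO-1 P3G and both of rde-4 did not hold under every setting tried.

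**Figure D1:**
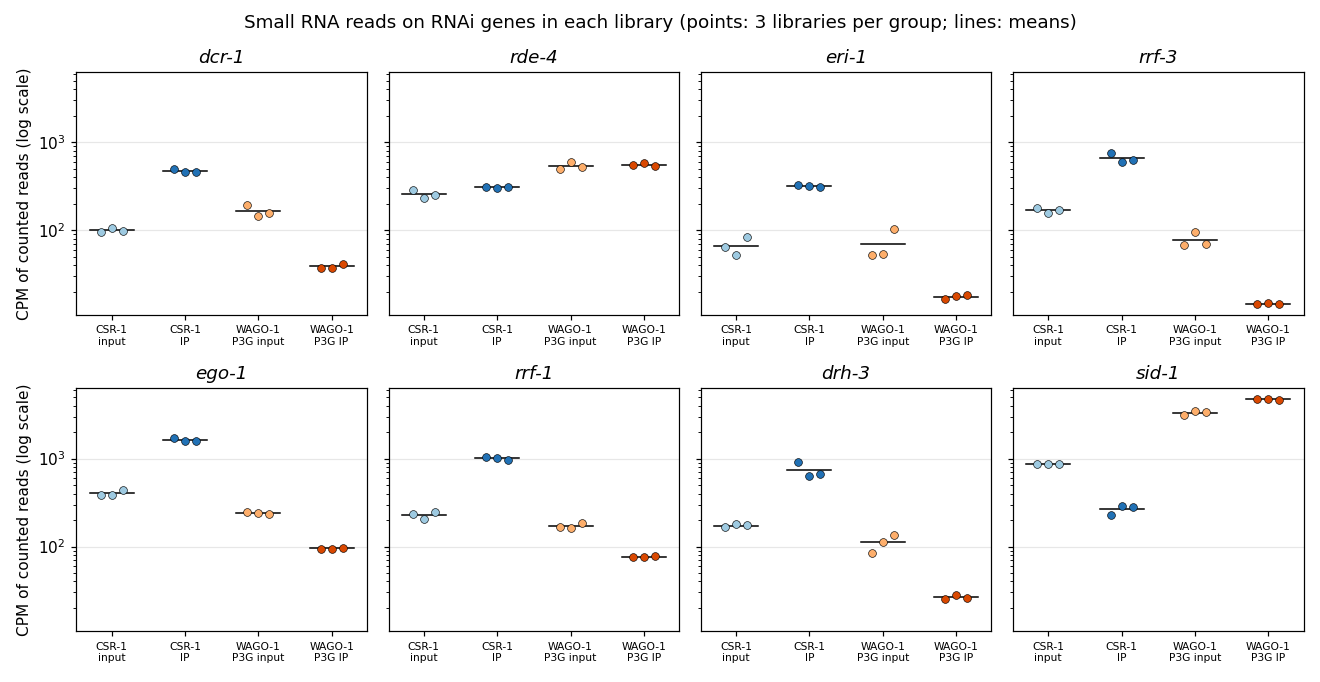
Each panel is a gene, the y axis is CPM of counted reads on a log scale, each point is a library and each line the mean of a group of 3. The 6 genes dcr-1, eri-1, rrf-3, ego-1, rrf-1 and drh-3 are highest in the CSR-1 IPs and lowest in the WAGO-1 P3G IPs, while sid-1 is lowest in the CSR-1 IPs and highest in the WAGO-1 P3G IPs.

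The Dicer group opens the pathway. dcr-1 (WBGene00000939, K12H4.8, III:8071967-8080281 on WBcel235, 8315 bp) codes for the worm's Dicer. Its level was 96.3, 106.9 and 99.2 CPM in CSR-1 inputs A, B and C, and 496.7, 466.1 and 458.6 CPM in the CSR-1 IPs. It was 194.2, 143.7 and 157.7 CPM in the WAGO-1 P3G inputs and 37.5, 37.4 and 41.6 CPM in the WAGO-1 P3G IPs. No 2 of the 4 groups overlapped, and the order from high to low was CSR-1 IP, WAGO-1 P3G input, CSR-1 input, WAGO-1 P3G IP. Reads on dcr-1 rose 6.27-fold in the fit with CSR-1 (log2 2.65 ± 0.14 SE, edgeR adjusted p = 2.1e-14) and fell by 1.49 ± 0.15 on the log2 scale with WAGO-1 P3G (edgeR adjusted p = 3.83e-09). Before any IP dcr-1 was higher in the WAGO-1 P3G strain, by log2 0.62 ± 0.17 (edgeR adjusted p = 0.00579). That call ended without WAGO-1 P3G input A (log2 0.45, edgeR adjusted p = 0.0902) and with scaling to all reads (log2 0.03, edgeR adjusted p = 0.911).

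rde-4 (WBGene00004326, T20G5.11, III:10217302-10218646, 1345 bp) codes for the double-stranded RNA binding protein that works with Dicer on long double-stranded RNA. Its level was 286.5, 232.5 and 254.7 CPM in the CSR-1 inputs, and 314.2, 303.1 and 306.7 CPM in the CSR-1 IPs. It was 500.1, 592.7 and 526.7 CPM in the WAGO-1 P3G inputs and 553.3, 582.0 and 541.6 CPM in the WAGO-1 P3G IPs. The WAGO-1 P3G inputs and IPs overlapped, and both lay above all CSR-1 libraries. The fit gave log2 0.69 ± 0.11 with CSR-1 and 0.65 ± 0.10 with WAGO-1 P3G (edgeR adjusted p = 7.88e-06 and 8.55e-06). The ratios of mean CPM were only 1.19 and 1.04, and with counted totals as the only scaling the second value was log2 0.05 (edgeR adjusted p = 0.67). The first call ended in a fit of the CSR-1 libraries alone (log2 0.29, edgeR adjusted p = 0.0682). Between the strains rde-4 was higher in the WAGO-1 P3G inputs by log2 0.99 ± 0.12 (edgeR adjusted p = 3.87e-07) and in the WAGO-1 P3G IPs over the CSR-1 IPs by 0.95 ± 0.10 (edgeR adjusted p = 8.92e-10).

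eri-1 (WBGene00001332, T07A9.5, IV:415635-419958, 4324 bp) codes for an exonuclease that limits RNAi and works in the Dicer complex of the endogenous pathway. Its level was 64.2, 52.5 and 83.1 CPM in the CSR-1 inputs and 327.0, 318.1 and 312.0 CPM in the CSR-1 IPs. It was 53.0, 53.9 and 104.2 CPM in the WAGO-1 P3G inputs and 16.7, 17.8 and 18.3 CPM in the WAGO-1 P3G IPs. The inputs of the 2 strains overlapped, with WAGO-1 P3G input C apart from A and B, and the IPs lay far to either side. eri-1 had the highest fitted rise of the 8 genes with CSR-1, 6.55-fold (log2 2.71 ± 0.17, edgeR adjusted p = 8.15e-13), though not apart from that of dcr-1 by its SE. With WAGO-1 P3G the change was log2 -1.41 ± 0.22 (edgeR adjusted p = 5.96e-06), and -0.70 without WAGO-1 P3G input C (edgeR adjusted p = 0.0224). In that rerun, filtered and scaled afresh, sid-1 also moved up, from log2 1.10 to 1.42, and rde-4 from 0.65 to 0.93. For eri-1 the inputs gave log2 0.03 ± 0.25 (edgeR adjusted p = 0.93), and no difference was detectable at this depth.

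The RdRPs and their partner form the next group. rrf-3 (WBGene00004510, F10B5.7, II:8162465-8168651, 6187 bp) codes for the RdRP that acts together with Dicer and ERI proteins. Its level was 177.9, 155.7 and 171.6 CPM in the CSR-1 inputs, and 757.7, 599.6 and 634.2 CPM in the CSR-1 IPs. It was 67.7, 95.8 and 70.4 CPM in the WAGO-1 P3G inputs and 14.6, 14.7 and 14.6 CPM in the WAGO-1 P3G IPs. The groups did not overlap, and the WAGO-1 P3G IPs differed from each other by less than for any other of the 8 genes. rrf-3 rose 5.34-fold with CSR-1 (log2 2.42 ± 0.14, edgeR adjusted p = 1.45e-13). It fell by 1.81 ± 0.22 on the log2 scale with WAGO-1 P3G (edgeR adjusted p = 9.56e-08) and was lower in the WAGO-1 P3G inputs than in the CSR-1 inputs by log2 -1.19 ± 0.20 (edgeR adjusted p = 4.61e-05). Among the 8 genes rrf-3 had the lowest fitted value in both of these comparisons.

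ego-1 (WBGene00001214, F26A3.3, I:7650341-7656338, 5998 bp) codes for a germline RdRP known to make CSR-1 small RNAs. Its level was 382.9, 390.1 and 439.6 CPM in the CSR-1 inputs, and 1709, 1582 and 1599 CPM in the CSR-1 IPs. It was 250.0, 242.5 and 233.8 CPM in the WAGO-1 P3G inputs and 94.5, 94.1 and 97.3 CPM in the WAGO-1 P3G IPs. By CPM, with no correction for length, ego-1 thus had the highest CSR-1 IP level of the 8 genes. On that footing it ranked 62 among all 20134 identifiers there, against 315 in the CSR-1 inputs. It rose 5.42-fold with CSR-1 (log2 2.44 ± 0.11, edgeR adjusted p = 1.31e-15) and was lower in the WAGO-1 P3G inputs by log2 -0.82 ± 0.13 (edgeR adjusted p = 1.31e-05). With WAGO-1 P3G it fell by 0.75 ± 0.12 on the log2 scale (edgeR adjusted p = 9.13e-06), a call that ended with scaling to all reads (log2 0.0039, edgeR adjusted p = 0.98) and with no filter on low counts (log2 -0.20, edgeR adjusted p = 0.479).

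rrf-1 (WBGene00004508, F26A3.8, I:7643426-7649777, 6352 bp) codes for an RdRP best known from somatic RNAi, and lies 563 bp from ego-1. The RdRP genes are related in sequence, and how the authors treated reads that match several of them is not stated, so a part of the reads of ego-1 and rrf-1 may be shared. The level of rrf-1 was 237.1, 206.3 and 243.9 CPM in the CSR-1 inputs and 1041, 1012 and 974.7 CPM in the CSR-1 IPs. It was 167.7, 161.6 and 185.9 CPM in the WAGO-1 P3G inputs and 75.5, 76.7 and 77.8 CPM in the WAGO-1 P3G IPs. The 4 groups kept the order seen for ego-1 and did not overlap. rrf-1 rose 5.94-fold with CSR-1 (log2 2.57 ± 0.11, edgeR adjusted p = 8.6e-16). Its fall with WAGO-1 P3G was the smallest of the 6 genes, by 0.57 ± 0.13 on the log2 scale (edgeR adjusted p = 0.000407). The call ended when any of the 6 inputs was left out (log2 -0.20 to -0.28), with a filter of 10 CPM in 3 libraries (log2 -0.25), with no filter (log2 -0.02) and with scaling to all reads (log2 0.18). The CSR-1 inputs are not part of this comparison, yet leaving 1 out gave log2 -0.24 to -0.26. In such reruns, filtered and scaled afresh, all 8 genes moved up, sid-1 from log2 1.10 to 1.18 to 1.46 and dcr-1 from -1.49 to -1.45 to -1.05. The lost calls thus do not single out an input for rrf-1, and their cause was not tested. For rrf-1 the inputs differed by log2 -0.49 ± 0.14 (edgeR adjusted p = 0.00707), lower in the WAGO-1 P3G strain. That call ended with no filter on low counts (edgeR adjusted p = 0.068).

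drh-3 (WBGene00008400, D2005.5, I:7820831-7826378, 5548 bp) codes for a Dicer-related helicase that the RdRPs need. Its level was 165.5, 178.2 and 174.2 CPM in the CSR-1 inputs, and 907.8, 627.9 and 664.8 CPM in the CSR-1 IPs. It was 85.3, 113.7 and 135.2 CPM in the WAGO-1 P3G inputs and 25.1, 27.8 and 26.01 CPM in the WAGO-1 P3G IPs. CSR-1 IP A was well above B and C, and the groups did not overlap. drh-3 rose 5.74-fold with CSR-1 (log2 2.52 ± 0.17, edgeR adjusted p = 1.19e-12) and fell by 1.49 ± 0.22 on the log2 scale with WAGO-1 P3G (edgeR adjusted p = 2.38e-06). The inputs differed by log2 -0.71 ± 0.22 (edgeR adjusted p = 0.0139), a call that ended without WAGO-1 P3G input A (log2 -0.60, edgeR adjusted p = 0.0726).

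sid-1 (WBGene00004795, C04F5.1, V:5119970-5126916, 6947 bp) codes for the membrane channel that lets double-stranded RNA into cells. Its level was 874.4, 868.3 and 879.3 CPM in the CSR-1 inputs, and 228.0, 292.7 and 284.9 CPM in the CSR-1 IPs. It was 3139, 3439 and 3374 CPM in the WAGO-1 P3G inputs and 4750, 4739 and 4681 CPM in the WAGO-1 P3G IPs. The 4 groups were far apart and did not overlap. sid-1 was lower in the CSR-1 IPs by log2 -1.29 ± 0.10 (edgeR adjusted p = 1.21e-11) and rose 2.15-fold with WAGO-1 P3G (log2 1.10 ± 0.09, edgeR adjusted p = 1.3e-10). The rise was 1.42-fold as a ratio of mean CPM. The largest difference in the inputs among the 8 genes was also at sid-1, higher in the WAGO-1 P3G strain by log2 1.84 ± 0.10 (edgeR adjusted p = 6.27e-14). Among all identifiers sid-1 ranked 135 in the CSR-1 inputs, 798 in the CSR-1 IPs, 31 in the WAGO-1 P3G inputs and 25 in the WAGO-1 P3G IPs. Those ranks are by CPM, with no correction for length.

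With CSR-1, 7 of the 8 genes were called higher and 1 lower, against 37.5% and 33.6% of all features tested (71.1% in either direction). Inputs and IPs did not overlap for 8 of the 8, as for 69.8% of features. The median log2 of the 8 was 2.48, beside 0.27 for all tested identifiers. The 6 genes of the main pattern lay close together, at 5.34-fold to 6.55-fold, above 95.9% to 97.6% of tested identifiers. rde-4 lay above 57.5% and sid-1 above 22.7%.

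With WAGO-1 P3G, 2 of the 8 genes were called higher and 6 lower, against 34.1% and 33.4% of all features (67.5% in either direction). Inputs and IPs did not overlap for 7 of the 8, all but rde-4, as for 71.9% of features. The median log2 of the 8 was -1.08, beside -0.12 for all tested identifiers. The 6 genes spread more widely here, from log2 -0.57 to -1.81, and lay above 14.95% to 40.4% of tested identifiers, while sid-1 lay above 77.0% and rde-4 above 65.6%.

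**Figure D2:**
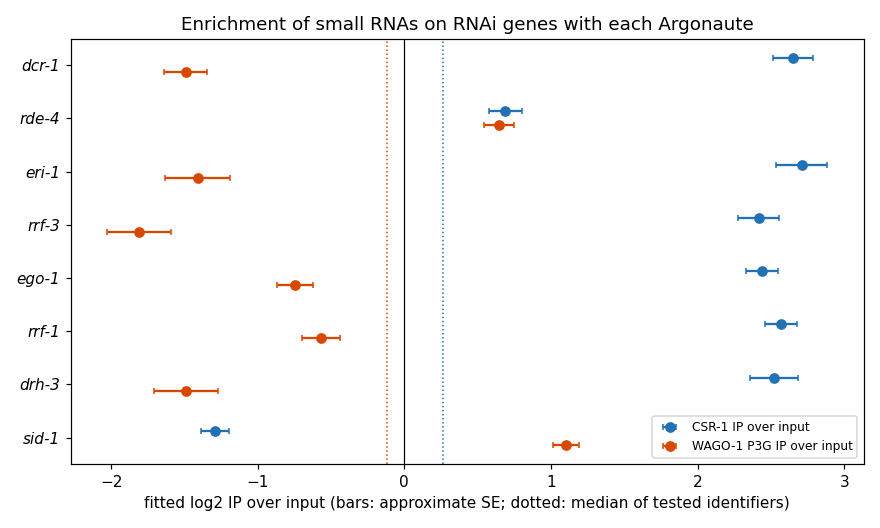
The x axis is the fitted log2 of IP over input for each gene, blue for CSR-1 and orange for WAGO-1 P3G, with bars for the approximate SE (3 libraries per group). Dotted lines mark the medians of all tested identifiers, 0.27 and -0.12. For 6 genes the blue points lie between 2.42 and 2.71 and the orange points below 0, sid-1 is turned round, and the pair of points of rde-4 overlap.

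The calls for WAGO-1 P3G against its input depend on what the libraries are scaled to. Counted reads were 25.9% to 27.2% of all reads in those inputs and 67.6% to 68.2% in those IPs. The median of all features was log2 0.12 with the TMM (trimmed mean of M-values) scaling used here, -0.48 with counted totals alone and 0.87 with totals of all reads, and 50.6%, 28.8% and 72.0% of calls were then higher. Under these 3 and median-of-ratios factors, dcr-1, eri-1, rrf-3 and drh-3 stayed below 0 and called, and sid-1 stayed above 0 and called (log2 0.51 to 1.86). ego-1, rrf-1 and rde-4 did not keep their calls, and ego-1 and rrf-1 also changed sign. A scaling shifts all features of a library alike, so values relative to the median of all features leave it out by construction and do not show which scaling is right. On that footing ego-1 lay at log2 -0.86 to -0.87, rrf-1 at -0.68 to -0.69, rde-4 at 0.53 and sid-1 at 0.99 under the 4 scalings.

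**Figure D3:**
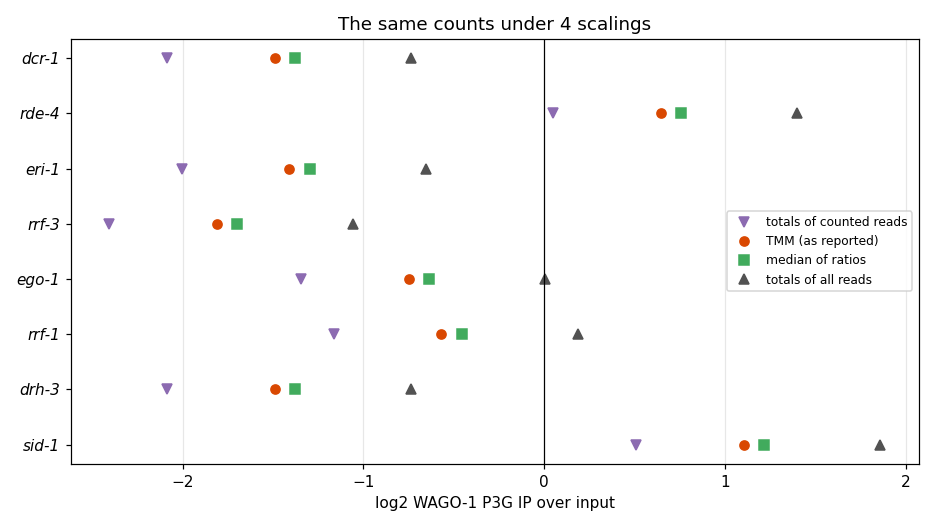
The x axis is the log2 of WAGO-1 P3G IP over input, with a symbol for each of 4 scalings of the same counts. Each gene's 4 symbols shift together. With totals of all reads those of ego-1 (0.0039) and rrf-1 (0.18) pass 0. With counted totals, at the other end, that of rde-4 comes near 0 (0.05).

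Whether the recovery of small RNAs from these genes differed between the Argonautes was tested as the difference of the log2 enrichments, WAGO-1 P3G minus CSR-1. It was called lower for 6 genes and higher for sid-1, against 40% and 33.9% of all features (73.9% in either direction). The 6 ranged from log2 -3.14 ± 0.17 for rrf-1 and -3.19 ± 0.16 for ego-1, through -4.01 ± 0.29 for drh-3, -4.12 ± 0.30 for eri-1 and -4.14 ± 0.21 for dcr-1, to -4.23 ± 0.27 for rrf-3 (edgeR adjusted p from 5.28e-15 to 5.93e-12). For sid-1 the difference was log2 2.40 ± 0.13 (edgeR adjusted p = 3.15e-14). rde-4 gave -0.04 ± 0.15 (edgeR adjusted p = 0.808), so no difference was detected. Its sign was not stable. With any 1 of the 12 libraries left out, and the rest filtered and scaled afresh, it was above 0 (log2 0.021 to 0.37). It was called higher in fits of identifiers alone (log2 0.35, edgeR adjusted p = 0.0353), with the filter of 10 CPM (log2 0.42, edgeR adjusted p = 0.0185) and without CSR-1 IP A (log2 0.34, edgeR adjusted p = 0.0243).

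Set directly against each other, the IPs differed at all 8 genes, as at 86.9% of all features. They did not overlap at 8 of the 8, as at 87.1% of features, and 2 were called higher with WAGO-1 P3G and 6 lower, against 42.3% and 44.5%. sid-1 was higher in the WAGO-1 P3G IPs by log2 4.24 ± 0.10 (edgeR adjusted p = 4.5e-22), and rrf-3 was lower by log2 -5.42 ± 0.14 (edgeR adjusted p = 2.27e-21), below which lay only 0.294% of tested identifiers. The other 5 of the main pattern were lower by log2 -3.52 to -4.72. drh-3 moved from -4.72 to -4.14 without CSR-1 IP A. Part of such a move can come from filtering and scaling afresh: with single libraries left out, ego-1 moved from -4.01 to as high as -3.58. This contrast also contains the difference between the strains before IP and is not a second test of the enrichments, since it shares their libraries.

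In the inputs, 3 of the 8 genes were called higher in the WAGO-1 P3G strain and 4 lower, against 19.7% and 18.7% of all features (38.4% in either direction). The inputs did not overlap for 7 of the 8, all but eri-1, as for 48.9% of features. Those higher were sid-1, rde-4 and dcr-1, and those lower were rrf-3, ego-1, drh-3 and rrf-1. The median of all features moved here too, from log2 0.03 to -0.56 with totals of all reads, where 18.3% of calls were higher in place of 51.3%. Under that scaling sid-1 and rde-4 stayed higher, at log2 1.24 and 0.39, and the 4 lower genes stayed lower, at -1.09 to -1.79.

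Shares among the 8 genes need no scaling between libraries, but each depends on the reads of the other genes. A share can thus fall while the gene's own CPM rises, as that of rde-4 did with CSR-1. Of the reads on the 8 genes, sid-1 took 38.5% ± 1.09 in the CSR-1 inputs, 5.00% ± 0.923 in the CSR-1 IPs, 70.6% ± 0.326 in the WAGO-1 P3G inputs and 85.1% ± 0.274 in the WAGO-1 P3G IPs. ego-1 took 17.8% ± 0.994, 30.2% ± 0.532, 5.17% ± 0.390 and 1.72% ± 0.0462 in the same order. rde-4 took 11.3% ± 1.05, 5.71% ± 0.237, 11.5% ± 0.660 and 10.07% ± 0.302 (SD, n = 3 each). The share of sid-1 thus went from the largest of the 8 in the CSR-1 inputs to the smallest in the CSR-1 IPs, while ego-1 became the largest there.

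**Figure D4:**
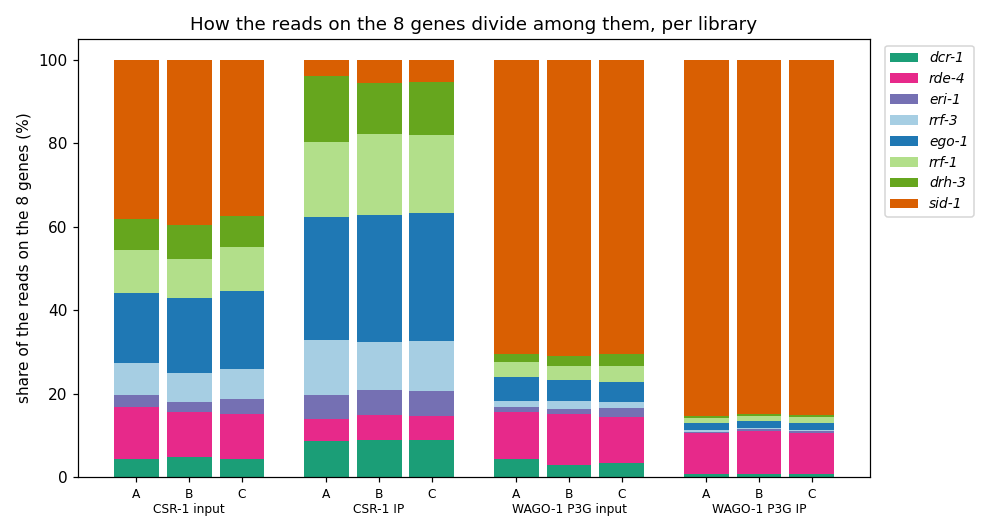
Each bar is a library, and its parts are the percent of reads on the 8 genes that each gene took. sid-1 fills 3.94% to 5.63% of the bars of the CSR-1 IPs and 84.8% to 85.3% of those of the WAGO-1 P3G IPs.

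Ratios of counts within a library also need no scaling, and the pairs given were picked after the values were seen and so get no test. sid-1 over rde-4 was 3.05, 3.73 and 3.45 in the CSR-1 inputs and 0.726, 0.966 and 0.929 in the CSR-1 IPs. It was 6.28, 5.80 and 6.41 in the WAGO-1 P3G inputs and 8.59, 8.14 and 8.64 in the WAGO-1 P3G IPs. The 4 groups did not overlap, so the reads of this pair moved unequally in each strain and between the strains. rrf-1 over rrf-3, both RdRP genes, was 1.36 ± 0.0536 in the CSR-1 inputs, 1.53 ± 0.157 in the CSR-1 IPs, 2.27 ± 0.510 in the WAGO-1 P3G inputs and 5.23 ± 0.0923 in the WAGO-1 P3G IPs (SD, n = 3 each). The ratio overlapped between CSR-1 inputs and IPs and stood apart in the WAGO-1 P3G IPs, at 5.16 to 5.34 against 1.69 to 2.64 in their inputs.

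**Figure D5:**
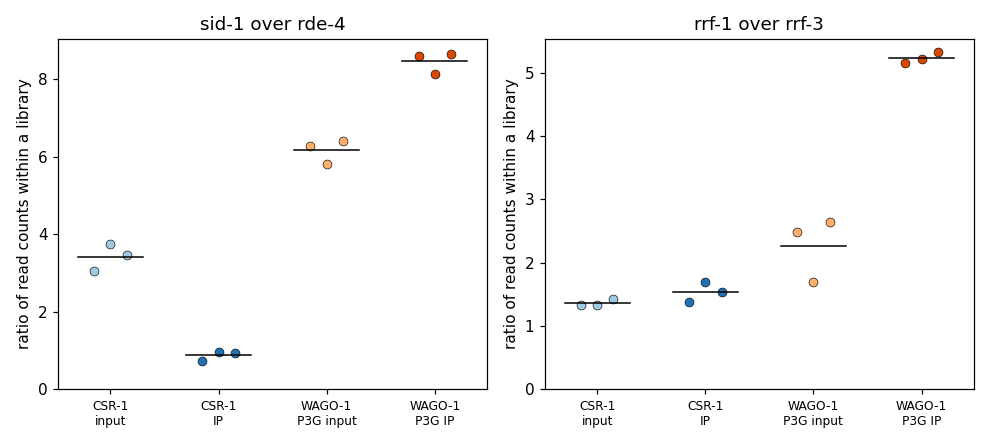
The y axes are ratios of read counts of a pair of genes within a library, sid-1 over rde-4 on the left and rrf-1 over rrf-3 on the right, with a point per library and a line at each group mean. The left ratio is lowest in the CSR-1 IPs and highest in the WAGO-1 P3G IPs, and the right ratio exceeds 5 only in the WAGO-1 P3G IPs.

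Between genes, levels can be set side by side only per length, here as CPM per kb of the RefSeq gene span, introns included. In the CSR-1 inputs the order was rde-4 (191.8 ± 20.2 CPM per kb), sid-1 (125.8 ± 0.793), ego-1 (67.4 ± 5.15), rrf-1 (36.1 ± 3.16), drh-3 (31.1 ± 1.17), rrf-3 (27.2 ± 1.85), eri-1 (15.4 ± 3.57) and dcr-1 (12.1 ± 0.657). The short gene rde-4 thus led per length of the span, though not by reads, and eri-1 and dcr-1 were not apart beyond their spread. Lengths without introns were not used, and the order of the genes by such lengths may differ. In the CSR-1 IPs ego-1 led (271.8 ± 11.5), ahead of rde-4 (229.0 ± 4.19) and rrf-1 (158.9 ± 5.23), and sid-1 came last (38.7 ± 5.09). In the WAGO-1 P3G IPs sid-1 (679.9 ± 5.40) and rde-4 (415.6 ± 15.5) stood far above ego-1 (15.9 ± 0.289), and rrf-3 came last (2.37 ± 0.0112). drh-3 (4.74 ± 0.251) and dcr-1 (4.67 ± 0.288) could not be told apart there.

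The table also lists strand-specific intervals of unstated origin, and 18 of them lie in 4 of the genes, 14 in sid-1, 2 in dcr-1 and 1 each in eri-1 and drh-3. For sid-1, intervals on the plus strand held 701 reads over the 3 WAGO-1 P3G IPs and those on the minus strand 3, beside 117655 reads on the sid-1 identifier. The plus-strand intervals held 5 reads in the CSR-1 inputs, 2 in the CSR-1 IPs and 13 in the WAGO-1 P3G inputs. Together the sid-1 intervals held 0.598% as many reads as the identifier in the WAGO-1 P3G IPs. Only 1 of the 18 passed the filter, V:5124065-5124360 on the plus strand of sid-1 (296 bp), with 610 reads in the WAGO-1 P3G IPs (24.4 ± 1.51 CPM, SD, n = 3). It held 5 reads in the CSR-1 inputs, 1 in the CSR-1 IPs and 12 in the WAGO-1 P3G inputs. Since it is highest in the WAGO-1 P3G IPs, through which it passed the filter, no fold change or test is given for it. The eri-1 interval held 24 reads in the WAGO-1 P3G IPs, 5.47% as many as its identifier, with 3 reads each in the CSR-1 inputs and IPs.

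Other genes of the pathway could be followed only through intervals within them, since identifiers were not paired with symbols. Of the 36 listed, 34 were in RefSeq, and 5 intervals in 3 of these passed the filter. With CSR-1, 4 of the 5 were called lower and 0 higher, and with WAGO-1 P3G 3 were called higher and 0 lower, against 33.6% and 34.1% of all features in those directions. An interval this low can pass the filter through the group where it is high, which favours a call, so these counts describe the 5 and support nothing. The interval in rsd-2, a gene of systemic RNAi (IV:13535530-13536221, plus strand), had 16.4 ± 4.15 CPM in the CSR-1 inputs, the group where it is high, against 2.38 ± 0.278 CPM after IP of CSR-1 (SD, n = 3 each). It had 4.74 ± 5.84 CPM in the WAGO-1 P3G inputs and 4.39 ± 0.333 CPM in the WAGO-1 P3G IPs (SD, n = 3 each), with log2 0.44 ± 0.65 between them (edgeR adjusted p = 0.553). The interval in xrn-2, an exonuclease gene, gave log2 0.44 ± 0.54 with CSR-1 (edgeR adjusted p = 0.474) and -0.80 ± 0.68 with WAGO-1 P3G (edgeR adjusted p = 0.299). Its level was 6.15 ± 0.488 CPM in the CSR-1 IPs and 2.19 ± 0.521 CPM in the WAGO-1 P3G IPs (SD, n = 3 each). The filter can favour that difference too, so no test is given for it. The other 3 lay on the plus strand of 1 gene, eri-6, which codes for part of a helicase, and so share their source. Their fitted values, which the filter may likewise favour, were log2 -1.80 to -2.58 with CSR-1 and 1.10 to 2.04 with WAGO-1 P3G. Of the marker genes of germline, sperm, muscle, intestine, neurons and hypodermis, 1 interval passed the filter, in the neuronal gene ric-4, and it was called in 0 of the 5 comparisons, so the tissue label was not checked.

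Across the 12 libraries the log2(CPM + 1) values of the 6 genes followed each other, with Pearson's r from 0.911 (dcr-1 and rrf-3) to 0.994 (ego-1 and rrf-1) over 15 pairs. sid-1 ran against them (r from -0.800 to -0.965 over 6 pairs), as did rde-4 less closely (-0.457 to -0.747). These values describe 4 separate groups of libraries and mostly repeat the group differences. Among 5837 identifiers with a mean of at least 20 CPM, those most like sid-1 over the 12 libraries were WBGene00013855, WBGene00044420 and WBGene00019881 (r = 0.997 each). Those most like ego-1 were WBGene00022269 and WBGene00008740 (r = 0.999 each) and WBGene00020463 (r = 0.998). For rde-4 they were WBGene00022794, WBGene00009451 and WBGene00010286, at r = 0.984, 0.983 and 0.969. The nearest identifier was WBGene00022427 for dcr-1 (r = 0.993), WBGene00022598 for eri-1 (0.996), WBGene00010044 for rrf-3 (0.998), WBGene00022399 for rrf-1 (0.997) and WBGene00002637 for drh-3 (0.998). None of the 8 genes was among the 3 nearest of another.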

How the data were processed

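Raw read counts per feature were deposited by the authors in one table, with no normalization. Per the submitters' processing notes, HTSeq 0.11.2, cutadapt 2.3, Bowtie 1.2.3, SAMtools 1.9 and genome build ce11 were used, with no role or order given. The strand setting, the annotation and the handling of reads with several alignments were not given in the sources used here. Entries for reads of no unique alignment, of low quality and unaligned are 0 in every library. Entries for reads on no feature made up 19.9% to 74.1% of a library and ambiguous reads at most 0.146%. Both stayed out of the tests and of CPM.

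edgeR 4.0.16 in R 4.3.3 was fitted to all 12 libraries, 1 mean for each group: filterByExpr, TMM factors and quasi-likelihood F tests, 8 residual degrees of freedom, Benjamini-Hochberg adjustment over all 10822 tested features, threshold 0.05. The steps were tested on simulated data in which few features changed, equally many up and down. That test could not check the scaling where most features differ, as between these IPs and inputs. The SE of a log2 value is its size divided by the square root of F, an approximation. Fitted folds include the TMM factors and ratios of CPM do not. Gene positions and spans come from RefSeq (WBcel235, the assembly that ce11 names), matched by symbol, and 0 identifiers are listed in that table. No sequence was used here. Intervals were tied to a gene by an overlap of at least 1 bp on either strand. Named were all 8 genes and every listed gene with an interval that passed the filter, called or not. For likeness, the 3 identifiers with the highest Pearson correlation were taken. For 5 genes only the nearest of the 3 is given. The genes and lists were chosen with earlier results of these data known. The 5 comparisons were rerun with other scalings, filters and feature sets and with DESeq2 1.42.0. They were also rerun with each library left out, with only the groups compared and with a replicate block. Each rerun on fewer libraries was filtered and scaled afresh.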

Additional observations from a re-analysis of the deposited data

Results flagged for a closer look

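Enrichment differed between the Argonautes, by the tested difference of the log2 values (WAGO-1 P3G minus CSR-1), at 7 of the 8 genes, where 73.9% of all features were called. The differences were -4.14 for dcr-1, -4.23 for rrf-3, -3.19 for ego-1, -3.14 for rrf-1, -4.01 for drh-3, -4.12 for eri-1 and 2.40 for sid-1. Bait, tag and genotype changed together, so their parts cannot be told apart.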

How the results depend on the processing

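Of 832 recomputed log2 values of the 40 results (8 genes in 5 comparisons), 792 kept their direction and side of the threshold, 15 lost the call and 25 changed sign. With totals of all reads, log2 became 0.0039 for ego-1 and 0.18 for rrf-1 (WAGO-1 P3G IP against input) and -0.56 for eri-1 (inputs), which was -0.039 with identifiers only and ran from -0.41 to 0.16 with single libraries left out. The difference of enrichments of rde-4 was 0.19 with median-of-ratios factors, 0.32 with totals of all reads, 0.042 without a filter, 0.42 with the filter of 10 CPM, 0.35 with identifiers only, 0.18 with DESeq2 and 0.021 to 0.37 with single libraries left out. Apart from the scalings, the cause was not tested. Numbers of features called moved by over 1.5 times as follows. For WAGO-1 P3G against its input, 3694 higher became 1908 with counted totals, 5629 with totals of all reads and 5559 without a filter, and 3610 lower became 2192 with totals of all reads. For the inputs, 2131 higher became 912 and 2020 lower became 4076 with totals of all reads. For IP against IP, 4581 higher became 10598 without a filter. The letters were not taken as pairs, since not every same-lettered pair correlated above 0.1 in its deviations. For CSR-1 input and IP r was 0.49 for A and 0.37 for B but 0.073 for C, whose input was closer to IP B (0.17), a hint of pairing for A and B. For WAGO-1 P3G r was -0.037 to 0.033. With the letter as a replicate block, 8, 8, 7, 8 and 7 of the 8 genes were called in the 5 comparisons. These counts were the same without it. The block was set within each strain for IP against input and for the difference of enrichments. For input against input and IP against IP it joined equal letters across the strains. With it, sid-1 had log2 -1.29 and 1.11 in the CSR-1 and WAGO-1 P3G IPs. Input counts of 18 to 66 reads on eri-1, dcr-1, rrf-3, drh-3 and rrf-1 in the WAGO-1 P3G strain limit what the inputs can show.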
